A study of Mus musculus with 4 samples.

Results

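The centromere-proximal ends of 18 mouse autosomes, chromosomes 1 to 19 without chromosome 14, were examined for contacts with Tcra/Tcrd, the locus of the T cell receptor alpha and delta chains, on chromosome 14. Members were the HindIII fragments of build mm9 whose midpoint lies at or below 10 Mb, and levels were taken from 3 Mb on, because the first 3 Mb of each assembled chromosome is a gap. In all, 25983 such fragments were captured in at least 1 library, out of 445410 captured fragments on these autosomes and 506753 on all chromosomes. Of the 25983 fragments, 25972 had their midpoint between 3 and 10 Mb, and each library held at most 6 below 3 Mb.

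Contacts were measured by 4C-seq, in which crosslinked chromatin is cut with HindIII and religated, cut again with DpnII and religated, and the fragments joined to a chosen one, called the viewpoint, are amplified by inverse PCR. CD4- CD8- thymocytes (DN) came from litters of C57BL/6 Rag2-/- mice aged 3 weeks, which cannot rearrange antigen receptor genes, and naive B cells (B) came from the spleen of wild type C57BL/6 mice. There were 2 samples of DN and 2 of B, and from each of them 4 libraries were made, 1 per viewpoint, 16 in all. TEA is the promoter element upstream of the Jα segments, Ed is the Tcrd enhancer E-delta, and the labels do not define INT1 and INT2. Genotype, tissue and sequencing folder (3 in all, none with both cell types, per the file headers) differ together with cell type and cannot be told apart from it. For B the labels repeat the protocol of the thymocytes, so the isolation of the B cells and their age are not given in the sources used here. Nothing in the labels says that the 2 samples of a cell type came from separate mice, so p-values measure only the spread between these samples. A 4C file holds no markers by which the cell types could be checked.

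Mouse chromosomes are telocentric: the centromere, made of satellite repeats, sits at 1 end, just outside the assembled sequence. In interphase nuclei the centromeric repeats of several chromosomes gather in dense bodies called chromocenters, and the first mapped megabases of each chromosome lie next to them. Ribosomal DNA arrays sit near the centromere on some of these chromosomes, which gather around nucleoli. Contacts between chromosomes are rare in 4C, so each fragment is scored as captured (any read) or not, and read numbers per fragment also carry PCR amplification.

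Libraries differed in depth. Mapped reads, taken from the value of 1 read, ranged from 1220738 to 17287420, captured fragments on the 18 autosomes from 18862 to 114326, and captured fragments at 3 to 10 Mb from 1293 (DN replicate 2, Ed) to 6996 (B replicate 2, TEA). The DN replicate 2 libraries of TEA and Ed stood apart in their read distribution: the median captured fragment beyond 10 Mb had 0.901 RPM (its reads divided by the mapped total of the library, in RPM as the authors scaled them) from TEA and 0.930 RPM from Ed, against a median of 4.84 RPM over all 16 libraries. Across the 16 libraries the proximal ratio described next fell with the number of captured fragments (Pearson r = -0.634, Spearman rho = -0.676, n = 16, a description, since libraries share samples and viewpoints).

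Captured fragments were denser at the proximal ends than on the remainder of the same chromosomes in every library. The density per Mb between 3 and 10 Mb, summed over the 18 chromosomes and divided by the density beyond 10 Mb, was 1.18 ± 0.0519 (SD, n = 4 samples, each the mean of its 4 viewpoints). The lowest of the 16 ratios was 1.11 (B replicate 1, INT1), the median 1.16 and the highest 1.29 (DN replicate 2, TEA). On the log2 scale the mean was 0.24, above 0 in 4 of 4 samples, which gives p = 0.13 in a two-sided exact sign-change test, the smallest that 4 samples allow. In absolute terms the proximal density ran from 10.3 to 55.5 captured fragments per Mb, against 8.11 to 49.5 beyond 10 Mb. Fragments captured in any of these libraries numbered 206 per Mb at 3 to 10 Mb and 194 per Mb beyond, a count that itself rises with capture. Per fragment captured from another viewpoint, the mean log2 ratio was 0.14 in place of 0.24, and it was also 0.14 where a captured fragment needed at least 1 RPM.

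The distal ends went the other way. The last 10 Mb of the chromosomes held 0.914 ± 0.0268 (SD, n = 4) times the density of the chromosome middle, with 0.853 to 0.959 over the 16 libraries, so all 16 lay below 1. The proximal ends exceeded the distal ends by 0.36 ± 0.09 on the log2 scale (SD, n = 4), in 4 of 4 samples and 16 of 16 libraries (exact sign-change test, two-sided, p = 0.13, the smallest possible).

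Reads gave a like ratio with more spread. RPM per Mb at 3 to 10 Mb over that beyond 10 Mb was 1.17 ± 0.110 (SD, n = 4), with a median of 1.13 and a range of 1.02 to 1.71 over the 16 libraries, all above 1. The largest value, DN replicate 2 from Ed, rested on few fragments: 20 of its 1293 proximal fragments carried 57.3% of the proximal RPM, and 1 fragment of chromosome 8 carried 6.56%. Single captured fragments were not stronger at the proximal ends: their median RPM was 0.795 ± 0.0757 times (SD, n = 4) that beyond 10 Mb, below 1 in 15 libraries and equal to it in the DN replicate 2 library of Ed.

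**Figure D1:**
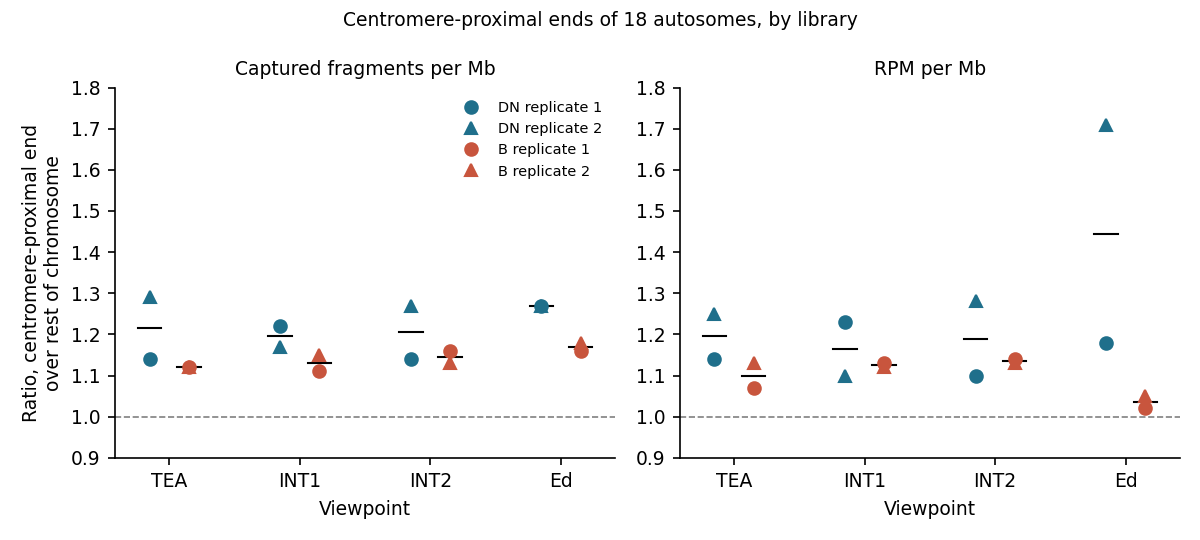
Ratio of density at 3 to 10 Mb to density beyond 10 Mb, summed over 18 autosomes, for captured fragments (left) and RPM (right), by viewpoint; circles and triangles are replicates 1 and 2 of DN and B, and black bars are means of 2 libraries. All 16 libraries lie above 1 (dashed line), between 1.11 and 1.29 for captured fragments, and the RPM ratio of 1.71 belongs to the DN replicate 2 library of Ed.

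The excess did not stop at 10 Mb. In bins of 1 Mb, pooled over the 18 chromosomes, the first bin (3 to 4 Mb) was the highest of the 27 bins up to 30 Mb, at 1.33 ± 0.0474 (SD, n = 4) times the density beyond 10 Mb. The next 6 bins, up to 10 Mb, lay between 1.13 and 1.23. Bins from 10 to 20 Mb lay between 1.09 and 1.26, which overlaps the range of the proximal bins. The bins at 20 to 21 and 21 to 22 Mb stood at 1.04 and 1.07. Those at 22 to 23 and 23 to 24 Mb reached 1.22 and 1.19, above 1 in all 16 libraries and within the range of the proximal bins. From 25 to 26 Mb the ratio was 0.893 ± 0.0204 (SD, n = 4) and below 1 in all 16 libraries. Fragments captured in any library varied less over the same bins, from 1.09 at 3 to 4 Mb to 0.945 at 25 to 26 Mb.

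**Figure D2:**
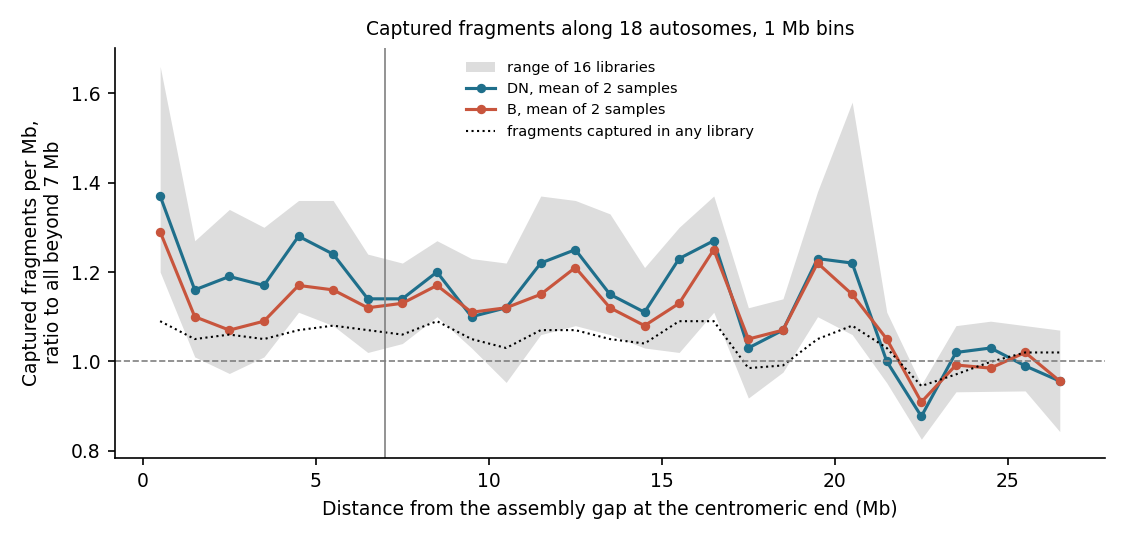
Captured fragments per Mb in 1 Mb bins, pooled over 18 autosomes and divided by the density beyond 10 Mb, against distance from the assembly gap; lines are means of 2 DN and 2 B samples, the grey band is the range of 16 libraries, the dotted line counts each fragment captured in any library once, and the vertical line marks the 10 Mb bound. The first bin is highest at 1.33, and values above 1 continue well past the bound.

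The ratios of the 18 ends, as means of 4 samples, ran from 0.982 on chromosome 2 to 1.58 on chromosome 7, with a median of 1.15 and 16 of 18 above 1. Within an end the SD over 4 samples was 0.0215 to 0.181. On 9 chromosomes all 16 libraries were above 1. The same ends were high in every sample: over the 18 chromosomes, Pearson r of the log2 ratios between samples was between 0.867 and 0.957, and between viewpoints 0.840 to 0.976 (n = 18, descriptions, as all share the fragment map and viewpoints share cells).

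**Figure D3:**
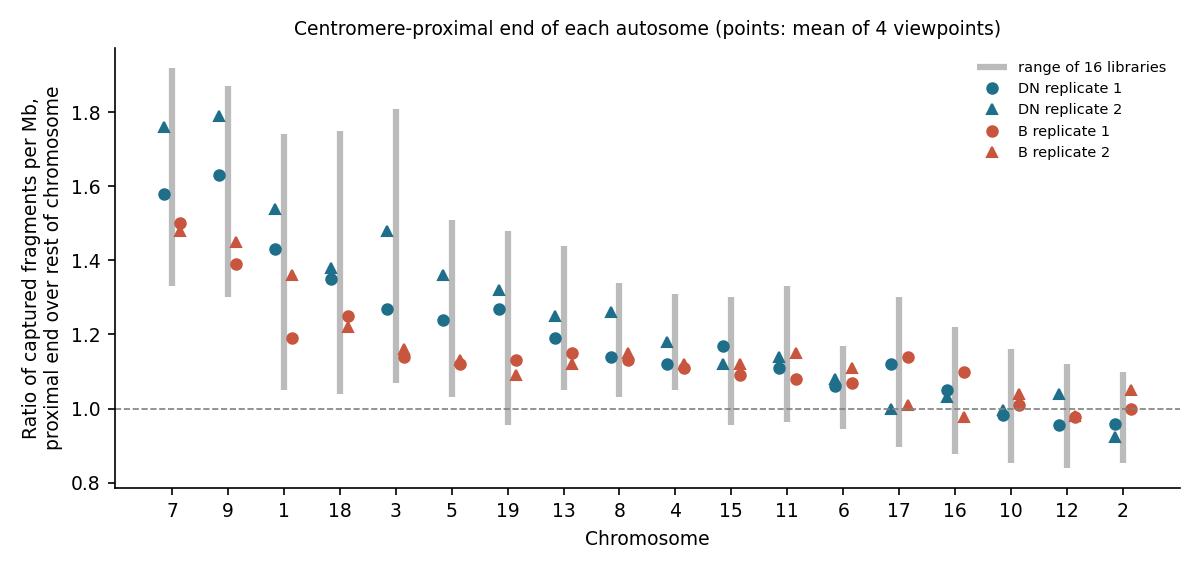
Ratio of captured fragments per Mb at 3 to 10 Mb to the same chromosome beyond 10 Mb, for 18 autosomes in order of mean log2 ratio; points are sample means over 4 viewpoints and grey bars span the 16 libraries. Chromosomes 7 and 9 stand highest, at 1.58 and 1.56, and chromosomes 2 and 12 lie just under 1.

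Chromosome 7 had the highest end. Its sample means were 1.58 and 1.76 in DN and 1.50 and 1.48 in B, and the 16 libraries ran from 1.33 to 1.92 with a median of 1.57, on 116 to 501 captured fragments. Both DN samples lay above both B samples. Against the other segments of the chromosome the log2 difference was 0.66 (SE 0.034, limma, Benjamini-Hochberg adjusted p = 1.55e-08). The density was not even along this end. The windows at 5 to 6, 7 to 8, 8 to 9 and 9 to 10 Mb reached 1.90 ± 0.326, 1.95 ± 0.179, 1.97 ± 0.254 and 2.23 ± 0.196 (SD, n = 4), while those at 4 to 5 and 6 to 7 Mb were at 0.842 ± 0.0652 and 0.926 ± 0.0595. The first window, 3 to 4 Mb, lay between them at 1.25 ± 0.0892 (SD, n = 4) and was above 1 in 13 of 16 libraries. The window at 9 to 10 Mb was the highest of all 126 proximal windows, and its lowest library stood at 1.87. Bounded at 5 Mb, the end of chromosome 7 no longer differed from the remainder (log2 0.01, limma adjusted p = 0.762). In RefSeq gene order (GRCm38.p6, a later build, used for names only) this end holds, among others, the paired immunoglobulin-like receptor genes Pira1, Pira2 and Pirb and the leukocyte receptors Lilra5, Lair1 and Ncr1. Names here and below were picked from the first 40 listed genes of each chromosome. Genes were not assigned to fragments or windows, so none of those named is placed in a high or a low window.

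Chromosome 9 was second, and its excess covered the whole end. Sample means were 1.63 and 1.79 in DN and 1.39 and 1.45 in B, again with no overlap between cell types, and the 16 libraries ran from 1.30 to 1.87. The log2 difference was 0.64 (SE 0.033, limma adjusted p = 1.55e-08). All 7 windows of 1 Mb lay between 1.40 and 1.69. In RefSeq order this end holds the glutamate receptor gene Gria4, the inflammatory caspase genes Casp1, Casp4 and Casp12, and the cluster of matrix metalloproteinase genes from Mmp13 to Mmp7.

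Chromosome 1 came next, with sample means of 1.43 and 1.54 in DN and 1.19 and 1.36 in B and a library range of 1.05 to 1.74. The log2 difference was 0.45 (SE 0.037, limma adjusted p = 6.85e-07). Its windows lay between 1.16 (9 to 10 Mb) and 1.68 (8 to 9 Mb). This end carries, in RefSeq order, Xkr4, the photoreceptor gene Rp1, the endoderm transcription factor gene Sox17, and Oprk1, which encodes the kappa opioid receptor.

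The lowest ends were those of chromosomes 2, 12 and 10. Chromosome 2 had sample means of 0.959 and 0.922 in DN and 0.999 and 1.05 in B, chromosome 12 had DN means of 0.955 and 1.04 and B means of 0.976 and 0.979, and chromosome 10 had DN means of 0.983 and 0.997 and B means of 1.01 and 1.04. None of these 3 ends passed the test against the rest of its chromosome (log2 -0.02, -0.02 and 0.01, limma adjusted p = 0.511, 0.622 and 0.772). Their sign changed between settings, as given in the closing section. Chromosome 10 was uneven: its first window, 3 to 4 Mb, stood at 1.33 ± 0.0905 (SD, n = 4), and its 5 windows from 5 Mb on lay between 0.856 and 0.961. Bounded at 5 Mb, this end was higher than the remainder (log2 0.33, limma adjusted p = 0.000102).

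**Figure D4:**
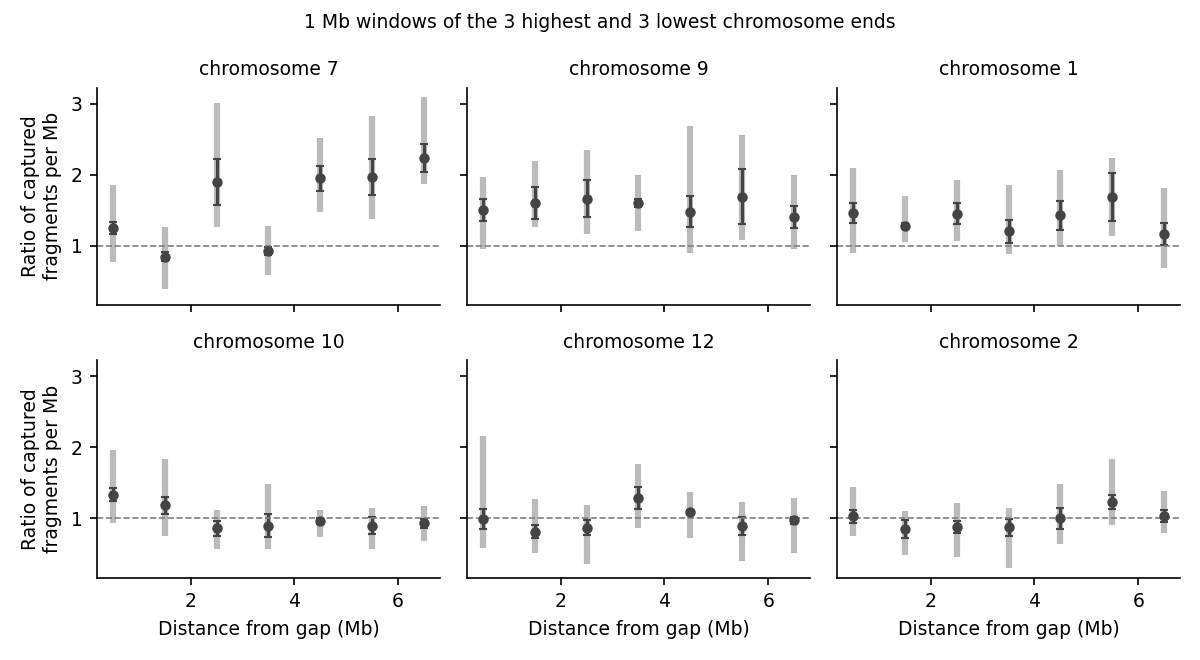
Captured fragments per Mb in 1 Mb windows over the density of the same chromosome beyond 10 Mb, for the 3 highest (top) and 3 lowest (bottom) ends, against distance from the assembly gap; points and error bars are the mean and SD of 4 samples and grey bars span 16 libraries. Chromosome 7 starts at 1.25 and then holds 4 windows at 1.90 or above and 2 under 1, chromosome 9 stays between 1.40 and 1.69, and chromosome 10 is above 1 in the first windows.

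Of the 126 proximal windows of 1 Mb, 87 had a mean ratio above 1, 25 were above 1 in all 16 libraries and 1 was below 1 in all of them. That window lay at 9 to 10 Mb on chromosome 4 (0.799 ± 0.0811, SD, n = 4). The lowest mean, 0.679 ± 0.139, was at 6 to 7 Mb on chromosome 19, where 119 fragments were captured in any library against 224 at 8 to 9 Mb on that chromosome (ratio 1.62 ± 0.231). High windows also occurred on ends with a low total: the window at 6 to 7 Mb on chromosome 17 stood at 1.97 ± 0.374 (SD, n = 4), although the whole end was at 1.07. These windows were chosen after their values were seen. Windows of single chromosomes beyond 10 Mb were not counted in this way. The counts of 87, 25 and 1 therefore have no background and do not show a trait of the proximal ends.

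Each chromosome was cut into segments of 10 Mb, the first from 3 to 10 Mb, and each segment's density was compared with the remainder of its chromosome beyond 10 Mb, with limma over the 4 sample means and Benjamini-Hochberg adjustment over all 234 segments. Of the 18 proximal segments, 14 were higher at an adjusted p under 0.05, against 35.9% of all 234 segments called higher, and 0 were lower, against 38.5% of all segments called lower. The proximal median was log2 0.20, and -0.01 over all segments. The 18 segments at 10 to 20 Mb were as often called, 16 higher and 0 lower with a median of 0.19, so the excess was not particular to the first 10 Mb. Of the 18 last segments, 1 was called higher and 12 lower, with a median of -0.18. In its own chromosome the proximal segment was the highest on 4 chromosomes (1, 9, 18 and 19) and among the 3 highest on 10. The number of segments ran from 6 on chromosome 19 to 20 on chromosome 1, and the segments at 10 to 20 Mb were not ranked in this way. These ranks therefore have no background.

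After chromosomes 7, 9 and 1, the called ends with the smallest adjusted p were those of chromosome 18 (log2 0.37), 3 (0.33), 19 (0.26), 5 (0.27), 13 (0.23), 8 (0.23) and 4 (0.18), with SE from 0.031 to 0.037 and limma adjusted p up to 0.000232. Chromosomes 15, 11, 6 and 17 also passed, at log2 0.17, 0.16, 0.11 and 0.09. Chromosome 16 did not pass (0.05, limma adjusted p = 0.168). Per fragment captured from another viewpoint, 11 of 18 ends stayed higher, and 1, chromosome 2, was called lower (log2 -0.11, limma adjusted p = 0.0125). Over all 234 segments, 66 were called higher and 75 lower in that setting. With equal numbers of fragments per library chromosomes 4, 6, 8 and 15 lost their calls (chromosomes 4 and 8 at log2 0.06 and 0.05). Chromosome 16 gained a call, which left 11 of 18 higher, against 44 higher and 49 lower of all 234 segments.

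The 5 autosomes that carry ribosomal DNA near the centromere in common laboratory strains (12, 15, 16, 18 and 19) had a median ratio of 1.12, from 0.987 to 1.30, with 4 of 5 above 1. The other 13 had a median of 1.17, from 0.982 to 1.58, with 12 of 13 above 1. The ranges overlap.

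Both samples of DN had higher proximal ratios than both samples of B from 3 of the 4 viewpoints. From TEA the ratios of captured fragments were 1.14 and 1.29 in DN and 1.12 and 1.12 in B. From INT1 they were 1.22 and 1.17 in DN and 1.11 and 1.15 in B. From Ed they were 1.27 and 1.27 in DN and 1.16 and 1.18 in B, the clearest separation. From INT2 they were 1.14 and 1.27 in DN and 1.16 and 1.13 in B, so the groups overlapped there. The differences, DN minus B on the log2 scale, were 0.11, 0.08, 0.12 and 0.07 for TEA, INT1, Ed and INT2, each with n = 2 against 2 and an exact permutation p of 0.33, 0.33, 0.33 and 0.67 (two-sided, smallest possible 0.33). Single DN samples moved these values: without DN replicate 2 the difference was 0.03 from TEA and -0.01 from INT2, and without DN replicate 1 it was 0.20 and 0.15. From INT1 it was 0.05 without DN replicate 1, and from Ed it stayed between 0.10 and 0.13 with each sample left out in turn.

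Averaged over the 4 viewpoints the ratio was 1.22 ± 0.0403 in DN and 1.14 ± 0.00528 in B (SD, n = 2 each), a log2 difference of 0.10 (exact permutation test, two-sided, p = 0.33), and of 0.06 without DN replicate 2. The DN samples were at 1.19 and 1.25 and the B samples at 1.14 and 1.15. Both DN libraries also captured fewer fragments on the 18 autosomes than both B libraries from TEA, INT2 and Ed (from INT1, 1 of the 2 did), and the proximal ratio fell with that number, as given above. The part of that number in the difference was not tested. With the 18000 strongest fragments of each library the difference of the means was 0.08, from INT1 0.01 and from INT2 -0.0022 (exact permutation p = 0.33, 1 and 1), while from TEA it was 0.12 and from Ed 0.20 (exact permutation p = 0.33 for both). These fragments were chosen by RPM and not at random, from 18862 to 114326 per library. The setting thus changes which fragments count as well as how many.

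In RPM the log2 differences, DN minus B, were 0.12, 0.05, 0.05 and 0.45 for TEA, INT1, INT2 and Ed. With DN replicate 2 left out, the one from Ed was 0.18, and with DN replicate 1 left out it reached 0.72. From Ed the RPM ratios were 1.18 and 1.71 in DN and 1.02 and 1.05 in B. From TEA they were 1.14 and 1.25 in DN and 1.07 and 1.13 in B, again without overlap, while the cell types overlapped from INT1 (1.23 and 1.10 against 1.13 and 1.12) and INT2 (1.10 and 1.28 against 1.14 and 1.13). The log2 difference of the sample means over 4 viewpoints was 0.17 (exact permutation test, two-sided, p = 0.33, n = 2 against 2) and 0.10 without the DN replicate 2 library of Ed. In that library the RPM ratio reached 5.49 on chromosome 1, 5.45 on chromosome 8 and 4.78 on chromosome 11, against medians over the 16 libraries of 1.20, 1.05 and 1.20. With fragments capped at the 95th percentile the difference from Ed was 0.13 in place of 0.45.

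Chromosome by chromosome, both DN sample means lay above both B means on 10 of 18 proximal ends (1, 3, 4, 5, 7, 9, 13, 15, 18 and 19), against 25.2% of all 234 segments. Both lay below on 2 (chromosomes 2 and 10), against 26.9% of all segments. With equal numbers of fragments these counts were 9 and 1, against 21.4% and 22.6% of all segments. At 1 RPM they were 8 and 2 (24.8% and 23.9% of all), and from 3.5 Mb on 11 and 2 (25.6% and 26.9%). They were closer with the end bounded at 5 Mb, 7 and 4 (25.6% and 29.0%), and at 20 Mb, 7 and 3 (25.4% and 26.3%). The largest differences in means were on chromosomes 9 (1.71 ± 0.109 in DN, 1.42 ± 0.0407 in B), 3 (1.38 ± 0.149 against 1.15 ± 0.0140) and 1 (1.48 ± 0.0761 against 1.27 ± 0.118, SD, n = 2 each). On chromosome 19 the means were 1.29 ± 0.0339 in DN and 1.11 ± 0.0282 in B.

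In the fit over all segments few of these differences passed the threshold. From TEA, 0 of 18 proximal segments were called, against 0% of all segments (4 of 18 and 16 of 234 had an unadjusted p under 0.05). From INT1, 1 of 18 was called, against 3.42% of all, which was chromosome 9. From INT2 0 of 18 were called, against 0% of all (1 of 18 and 18 of 234 unadjusted), and from Ed 0 of 18, against 1.28% (3 of 18 and 30 of 234 unadjusted). On the mean of the 4 viewpoints 0 of 18 were called in limma, against 0% of all, with 7 of 18 and 51 of 234 at an unadjusted p under 0.05. In edgeR on recovered reads, 0, 1 and 0 of all segments were called from INT1, INT2 and Ed (7, 25 and 8 of 234 at an unadjusted p under 0.05), and the call from INT2 was not proximal. Proximal medians of the log2 difference were 0.08 (TEA), 0.12 (INT1), 0.10 (INT2) and 0.13 (Ed), with 15, 12, 13 and 13 of 18 above 0. Over all segments, 122, 119, 124 and 119 of 234 were above 0, in the same order. On the mean of the 4 viewpoints the proximal median was 0.07 with 14 of 18 above 0, against 0.00 with 120 of 234 over all segments.

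With the settings given above, the end of chromosome 9 seen from INT1 was the single proximal call between cell types. Its ratios were 1.72 and 1.69 in DN, on 391 and 171 captured fragments, and 1.35 and 1.41 in B, on 375 and 310. The log2 difference was 0.30 (SE 0.09, limma, Benjamini-Hochberg adjusted p = 0.0415, n = 2 against 2), and all DN values lay above all B values. The call was lost in 10 of 18 alternatives, among them limma with a trend (adjusted p = 0.0515), edgeR on recovered reads (0.942) and equal numbers of fragments (log2 0.06, adjusted p = 0.999). It was also lost without B replicate 1, B replicate 2 or DN replicate 2, where the log2 difference was 0.27, 0.33 and 0.31 (limma adjusted p = 0.727, 0.589 and 0.0671); with a trend it was 0.30. From TEA, INT2 and Ed the same end differed by 0.28, 0.15 and 0.33 (limma adjusted p = 0.684, 0.648 and 0.216).

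On the mean of the 4 viewpoints, other settings called proximal ends where the one used here called none. Where a captured fragment needed 1 RPM, 4 of 18 were called, against 17 of all 234 segments. With a pseudocount of 5 it was 5 of 18, against 16 of 234. The replicate number as a block gave 5 of 18, against 27 of 234. Bounded at 20 Mb, 2 of 18 were called, against 6 of 118. Chromosomes 3 and 9 were called in each of these 4 settings. Calls on that mean also depended on which DN sample was kept. Without DN replicate 1, which leaves DN replicate 2 alone and assumes that it varies like the B samples, 10 of the 18 proximal ends and 85 of 234 segments were called. Without DN replicate 2, 0 were called in either set. A test of whether the cell type difference varied between viewpoints, added after the data were seen, called 0 of 18 proximal segments, against 0% of all (limma F test, 0 of 18 and 19 of 234 at an unadjusted p under 0.05).

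**Figure D5:**
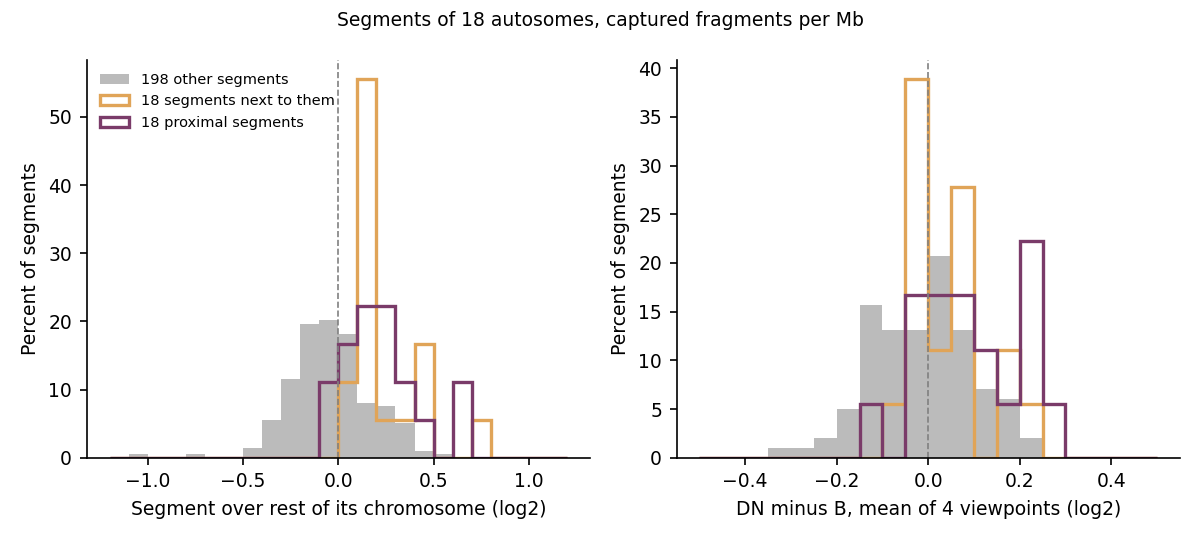
Distribution of log2 values over 18 proximal segments, the 18 segments next to them (10 to 20 Mb) and 198 others, as percent of each set: left, segment over the rest of its chromosome; right, DN minus B on the mean of 4 viewpoints. On the left the proximal segments and their neighbours lie to the right of the others, with medians of 0.20 and 0.19; on the right the proximal median is 0.07.

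The 4 viewpoints gave like ratios. Over the 4 samples, the ratio of captured fragments stood at 1.17 ± 0.0809 (TEA), 1.16 ± 0.0475 (INT1), 1.18 ± 0.0671 (INT2) and 1.22 ± 0.0571 (Ed; SD, n = 4). The means differed by at most 0.07 on the log2 scale. The exact permutation test of viewpoint labels within samples, run on the variance between the 4 viewpoint means, gave p = 0.318. Of the 6 pairs, the one farthest apart was Ed above INT1, by 0.07 ± 0.03 (SD, n = 4), in 4 of 4 samples (exact sign-change p = 0.13, adjusted over 6 pairs 0.750). For RPM the means differed by at most 0.09 (exact permutation test on the variance between means, p = 0.973). These p-values do not show that the viewpoints act alike: the SD of the paired differences was 0.03 to 0.10 for captured fragments, as large as most of the differences. With the proximal end bounded at 5 Mb the viewpoint means spread more, by 0.14 (exact permutation p = 0.0140).

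By chromosome, 0 of the 18 proximal segments differed between viewpoints, against 2.56% of all segments (limma F test with sample as a term, adjusted p under 0.05; 5 of 18 and 73 of 234 at an unadjusted p under 0.05). The proximal segment nearest the threshold was chromosome 1 (limma adjusted p = 0.0527), with 1.43 ± 0.224, 1.25 ± 0.145, 1.31 ± 0.161 and 1.52 ± 0.122 in the order TEA, INT1, INT2, Ed (SD, n = 4). These values overlap between viewpoints. Per fragment captured from another viewpoint, 6 of 18 proximal segments and 65 of 234 overall were called. In that setting the denominator itself differs between viewpoints and is the same for all samples of a viewpoint. Such calls can therefore come from the denominator, and no conclusion is drawn from them.

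Proximal fragments were somewhat more often captured repeatedly. Of 25972 fragments captured at 3 to 10 Mb, 626 (2.41%) were captured in at least 8 of the 16 libraries, against 1.47% of 419427 beyond 10 Mb. At 12 or more libraries the shares were 0.270% and 0.141%. In all 16 libraries, 2 proximal fragments (0.00770%) and 10 beyond 10 Mb (0.00238%) were captured. Between the 2 samples of a cell type from the same viewpoint, the share of replicate 1's fragments also found in replicate 2 was higher at the proximal ends in all 8 pairs, for example 36.9% against 31.6% in B from TEA and 17.8% against 14.2% in DN from INT1. The density of captured fragments was higher there too, and its part in these shares was not tested. Captured fragments had a median length of 2531 to 4610 bp at the proximal ends and 2672 to 4355 bp beyond 10 Mb.

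The 5 proximal fragments with the highest median RPM all lay within 69.6 kb on chromosome 11, next to the assembly gap. The fragment at 3081522 to 3086931 (mm9) had a median of 44.0 RPM, a highest value of 103 RPM in DN replicate 1 from INT1, and was captured in 15 of 16 libraries. The other 4, starting at 3035363, 3061508, 3078161 and 3099776, had medians of 43.2, 36.7, 32.6 and 22.2 RPM and were captured in 10, 12, 13 and 10 libraries. From Ed the medians were 22.2, 3.82, 0 and 0 RPM for these 4 and 10.1 RPM for the first, the lowest of the 4 viewpoints except at 3035363, where the median from TEA was 0. The fragment starting at 3061508 was captured in 8 of 8 B libraries (median 57.4 RPM) and 4 of 8 DN libraries (median 4.23 RPM), the widest contrast of the 5. Those starting at 3081522, 3035363, 3078161 and 3099776 were captured in 8, 5, 7 and 6 B libraries. In DN the numbers were 7, 5, 6 and 4 of 8. The 8 libraries of a cell type come from 2 samples, and these differences were not tested. No annotation of build mm9 was used, so no gene is named for the 5 fragments. Without them the mean log2 ratio of captured fragments was still 0.24.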

How the data were processed

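The 16 libraries (2 DN and 2 B samples, 4 viewpoints) were used as deposited. Per the submitters' processing notes, CASAVA, Bowtie and build mm9 were used, with no versions or settings. The authors gave each HindIII fragment a value in RPM, its reads scaled to the library's mapped total, and per the file headers fragments were padded by 40 bp. The 8 deposited means were not used. In each library 100.0% of values were whole multiples of the smallest, within 0.01 read, which gave the mapped totals. Reads were taken as recovered in 15 libraries; in the DN replicate 2 library of TEA the value of 1 read lies close to a power of 10, where rounding can look the same, so edgeR was run from INT1, INT2 and Ed and not from TEA.

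A fragment with a value above 0 was counted as captured. Segment values were log2 of captured fragments per Mb (pseudocount 0.5) over the rest of the chromosome beyond 10 Mb. They were kept at a mean of 10 fragments, with a last segment of at least 5 Mb, and fitted with limma 3.58.1 in R 4.3.3 (edgeR 4.0.16 as an alternative). The limma fits were also run on simulated data in which each library was drawn independently. Libraries that share a sample were not simulated, so no error rate is taken from that run. RPM ratios had a pseudocount of 1 RPM. Pooled ratios were tested by exact enumeration. Chromosome ends named are the 3 highest and 3 lowest by mean log2 ratio and up to 10 called in a fit; named fragments are the 5 with the highest median RPM. Alternatives changed the capture minimum, bounds, comparator, pseudocount, filter, trend, replicate block and samples; equal numbers of fragments, edgeR, the interaction test and leaving out 1 Ed library were added after the data were seen. Members, lists and tests were chosen with earlier results of these data known. The labels do not say that replicate numbers pair samples across cell types. Counts cover counting error only, since PCR reads carry no molecular identifiers. Python 3.11.15, numpy 2.4.6, pandas 2.3.3, scipy 1.17.1 and matplotlib 3.10.9 were used.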

Additional observations from a re-analysis of the deposited data

How the results depend on the processing

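The pooled excess at the proximal ends kept its direction in each alternative, from 0.14 to 0.29 for captured fragments and 0.12 to 0.28 for RPM on the log2 scale, and DN minus B on the mean of 4 viewpoints stayed above 0, from 0.06 to 0.13 and from 0.06 to 0.26, samples left out included. From INT2 the difference turned to -0.0022 with equal numbers of fragments and, with each sample left out in turn, ran from -0.01 to 0.15 for captured fragments and from -0.05 to 0.16 for RPM. From TEA it ran from 0.03 to 0.20 for captured fragments, and from INT1 the RPM difference ran from -0.03 to 0.13. The viewpoint means spread by 0.14 (exact permutation p = 0.0140) with the proximal end bounded at 5 Mb. The ends near 1 changed sign: chromosome 2 was 0.04 with equal numbers, 0.06 up to 20 Mb (limma adjusted p = 0.0387) and 0.02 with a pseudocount of 5. Chromosome 12 was called lower at 1 RPM (-0.10, limma adjusted p = 0.0166) and up to 5 Mb (-0.17, adjusted p = 0.0114) and higher up to 20 Mb (0.07, adjusted p = 0.0157), and was 0.04 against all 18 autosomes, 0.03 with a pseudocount of 5, and -0.05 to 0.01 with samples left out. Chromosome 10 was -0.03 at 1 RPM, -0.0035 against all 18 autosomes, -0.02 per catalogued fragment, -0.10 with equal numbers, -0.01 from 3.5 Mb on, and -0.0019 to 0.02 with samples left out. Counts of called segments moved most. From INT1, where 8 were called, there were 0 at 1 RPM, 14 against all 18 autosomes, 2 with a trend, 0 in edgeR, 1 with equal numbers, 5 without the last 10 Mb, 0 up to 5 Mb and 5 with a pseudocount of 5. From INT2, 1 in place of 0 was called against all 18 autosomes, in edgeR, with equal numbers, without the last 10 Mb, up to 5 Mb and with the replicate block. From Ed, where 3 were called, there was 1 at 1 RPM, and 0 in edgeR, with equal numbers, up to 20 Mb, up to 5 Mb and with the replicate block. On the mean of 4 viewpoints, 17 in place of 0 were called at 1 RPM (4 proximal), 6 up to 20 Mb (2 proximal), 16 with a pseudocount of 5 (5 proximal) and 27 with the replicate block, 5 of them proximal (chromosomes 1, 3, 5, 9 and 19). The labels do not say whether replicate numbers pair samples; deviations of same-numbered samples from their group means correlated at r = 0.211 over 234 segments. Between viewpoints, where 6 were called, there were 37 at 1 RPM, 14 against all 18 autosomes, 65 per catalogued fragment, 16 with a trend, 10 without the last 10 Mb, 12 up to 20 Mb, 10 up to 5 Mb and 13 with a pseudocount of 5. The count per catalogued fragment cannot tell viewpoints from their denominators, as given above. Segments higher than the rest numbered 84, and 46 at 1 RPM, 44 with equal numbers, 50 up to 20 Mb and 147 up to 5 Mb; lower ones numbered 90, and 56, 49, 45 and 190. The last 2 settings test 118 and 468 segments. With samples left out the calls ran from 0 to 79 (TEA), 0 to 37 (INT1), 0 to 14 (Ed), 0 to 85 (mean of 4 viewpoints) and 2 to 21 (between viewpoints), the highest without DN replicate 1, or without DN replicate 2 between viewpoints. The cause was not tested. The Ed libraries held 1293 to 2648 captured proximal fragments and the DN libraries of INT2 1957 and 1979, and with 2 samples per cell type no pooled difference could reach the threshold in the exact permutation test, the one test run on it.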

Other observations

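The X chromosome, which is no autosome and entered no comparison, had a proximal ratio of captured fragments of 1.11 ± 0.0404 (SD, n = 4 samples). It was above 1 in 15 of 16 libraries, from 0.838 in DN replicate 2 from INT2 to 1.25 in DN replicate 2 from INT1. The means were 1.09 ± 0.0308 in DN and 1.13 ± 0.0412 in B (SD, n = 2 each).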
